A study of Mus musculus with 28 samples.

Results

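The 10 genes of the TNF, IL-6 and NF-κB pathway described here were followed across 28 AB1-HA tumors by RNA sequencing of whole tumors. They were chosen by name, as the rows named Tnf, Il6, Tnfaip3, Nfkbia, Nfkbiz, Nfkb1, Nfkb2, Rela, Relb and Birc3, and all 10 of these rows were present among the 55315 gene names used. AB1-HA is a mouse mesothelioma cell line that carries the influenza hemagglutinin gene, and it was grown under the skin of female BALB/c.AusBP mice of 8 to 10 weeks of age. Treatment began at a tumor area of 20 to 25 mm2, and every tumor was taken 7 days later, 1 from each mouse.

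The groups were PBS (n = 4), immune checkpoint blockade (ICB, n = 5), 5-FU (n = 5), Cisplatin (n = 4), 5-FU+ICB (n = 5) and Cisplatin+ICB (n = 5). ICB was anti-CTLA-4 (100 μg, given once) with anti-PD-L1 (100 μg, given 3 times at intervals of 2 days), both into the peritoneum. 5-FU, an antimetabolite that blocks thymidylate synthesis, was given once at 75 mg/kg into a tail vein. Cisplatin, which crosslinks DNA, was given once at 6 mg/kg into the peritoneum. All groups carried the same transplanted line, and whether the cells came from 1 culture is not given in the sources used here. The total estimated count per tumor was 23541733 to 33950805, with a median of 28797552.

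TNF is a cytokine of activated macrophages and T cells that binds the receptors TNFR1 and TNFR2. Receptor complexes built on TRADD, RIPK1, TRAF proteins and cIAP ubiquitin ligases activate the IκB kinases, which release NF-κB dimers from IκB inhibitors so that they enter the nucleus. NF-κB induces cytokines, among them Il6 and Tnf itself, together with its own inhibitors. IL-6 signals through IL6RA, gp130 (Il6st), JAK kinases and STAT3. RNA levels do not measure phosphorylation or nuclear entry of NF-κB.

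The libraries of 3 tumors stood apart and touch the results that follow. Cisplatin+ICB replicate 1 had a long-minus-short transcript index of -2.27 and 15.5% of counts in ribosomal protein genes, against 3.89 to 9.57% in the other 27 tumors. The index is the median log2 level of genes with long transcripts less that of genes with short ones. Each gene was first centred on its median over the tumors. PBS replicate 2 had an index of -1.09. 5-FU+ICB replicate 5 had mesothelin (Msln), a mesothelioma marker, at 0.50 CPM, the lowest value of a gene that was also lower in whole groups (given with each comparison), and 16.1% of counts in mitochondrial genes. These shares also differed between whole groups. Ribosomal protein genes held 5.73 to 9.57% of counts in PBS tumors, against 3.98 to 4.70% in ICB and 4.03 to 4.69% in 5-FU tumors. Mitochondrial genes held 1.54 to 2.37% in PBS tumors, against 2.70 to 4.83% in ICB and 2.72 to 6.81% in 5-FU tumors. The 5-FU+ICB tumors overlapped PBS in both, at 3.89 to 6.83% and 2.34 to 16.1%. The part of these shares in the changes against PBS was not tested. Of 7 mesothelial and mesothelioma markers 4 could be tested, and Upk3b and Lrrn4 were at 0. The 4 did not move one way against PBS. Wt1, scarce at 0 to 0.18 CPM in PBS tumors and at most 2.79 CPM in any group, was called higher in ICB, 5-FU, 5-FU+ICB and Cisplatin+ICB tumors. Krt19 was called higher in 5-FU+ICB, with a median of 0.86 CPM and a highest value of 48.98 CPM, and Msln was called lower there. Levels are in CPM, the count of a gene relative to the effective library size, after TMM scaling over the 28 tumors. A gene was called when the adjusted p was under 0.05 and the log2 fold change was beyond 0.5 in either direction.

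The promoters of 3 members, the 2 cytokines and the classical NF-κB inhibitor, are shown first, because NF-κB is known to act at them and the 3 genes had different patterns in the tumors. RefSeq promoter entries (GRCm38.p6) matched 7 of the 10 members and none was matched for Nfkbiz, Nfkb1 and Relb. The 250 bases before the transcription start were searched on both strands for the κB consensus, a site of 10 bases. It was found in 7.25% of 32851 promoter entries of the genome, and in the entry nearest the annotated start it was found in 4 of the 7 members. Below, each sequence runs 5′ to 3′ on the strand of its gene and ends at the base before the start, and capitals mark a κB match.
Tnf, chr17:35202008-35202257, minus strand: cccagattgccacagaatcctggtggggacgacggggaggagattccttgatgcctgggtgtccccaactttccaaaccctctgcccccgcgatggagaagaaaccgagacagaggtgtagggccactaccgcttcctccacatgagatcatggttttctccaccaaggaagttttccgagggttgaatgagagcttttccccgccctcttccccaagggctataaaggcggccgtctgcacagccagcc
Il6, chr5:30012864-30013113, plus strand: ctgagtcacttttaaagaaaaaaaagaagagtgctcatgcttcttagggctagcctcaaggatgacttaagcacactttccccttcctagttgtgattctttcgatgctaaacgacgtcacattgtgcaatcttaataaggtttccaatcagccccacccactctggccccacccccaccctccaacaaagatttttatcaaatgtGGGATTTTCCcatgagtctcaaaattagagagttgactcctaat
Nfkbia, chr12:55492648-55492897, minus strand: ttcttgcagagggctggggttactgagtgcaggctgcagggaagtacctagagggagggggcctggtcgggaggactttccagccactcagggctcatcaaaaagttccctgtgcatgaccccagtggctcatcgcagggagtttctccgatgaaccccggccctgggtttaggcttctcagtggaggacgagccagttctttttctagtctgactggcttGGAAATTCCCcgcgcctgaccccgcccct
Il6 held 1 match, GGGATTTTCC, at positions -44 to -35 from the start, and Nfkbia held 1, GGAAATTCCC, at -29 to -20. Tnf held none of these letters in its window. The windows of Tnfaip3 and Nfkb2 overlap annotated exons and are not printed. Their RefSeq starts lie 247 and 417 bases inside the annotated gene, and all 3 Nfkb2 matches fall in an annotated exon. Tnfaip3 held GGGACACCCC and GGAAATCCCC. Nfkb2 held GGGAATTCCC, an overlapping match on the next base, GGAATTCCCC, and GGGGCTTTCC. No match was found before Rela or Birc3. A match says only that these letters are present.

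The first comparison asks what ICB alone did to the pathway. Of the 10 members, 8 were called higher in ICB than in PBS tumors and none lower, and the same 8 did not overlap between the groups. Of all 17894 genes tested, 37.8% were called in either direction, 19% higher, and 15.8% had every ICB tumor above every PBS tumor. The median log2 fold change of the members was 0.90, beside -0.03 over all genes tested. Tnf had the largest change, followed by Tnfaip3 and Birc3, while Il6 and Nfkb2 were not called. When the same 9 tumors were fitted with the cisplatin groups instead, 4655 genes in all were called against 6764, and 5 members, while Nfkb1 (adjusted p = 0.088), Relb (0.0531) and Rela (0.236) were not.

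Tnf (chr17:35199381-35202007, minus strand) was at 1.87, 3.50, 1.63 and 1.76 CPM in the PBS tumors. With ICB it was at 19.7, 39.0, 13.7, 17.8 and 21.5 CPM. Every ICB tumor was above every PBS tumor, and the highest PBS value was that of replicate 2. The log2 fold change was 3.36 ± 0.53 (SE; adjusted p = 0.00037), a 10.3-fold rise. In a bulk tumor, more cells of a type and more RNA per cell cannot be told apart. Ptprc, the pan-leukocyte antigen CD45, was higher as well (log2 fold change 2.00, adjusted p = 0.00231), as were 3 of 4 leukocyte, 5 of 5 T cell, 6 of 7 macrophage and monocyte, 3 of 5 dendritic cell, 2 of 4 neutrophil and 1 of 4 endothelial markers. The summed neutrophil markers were at 59.2 to 164 CPM in ICB against 9.12 to 17.9 CPM in PBS tumors, and the summed dendritic cell markers at 111 to 430.5 against 20.8 to 25.1 CPM. Mesothelin (Msln), a mesothelioma marker, was lower in every ICB tumor, at 52.1 to 217 CPM against 272 to 359 CPM in PBS (log2 fold change -1.51, adjusted p = 0.117, not called). Relative to Ptprc within each tumor, Tnf was 1.32 higher on the log2 scale in ICB than in PBS tumors. On that scale Tnfaip3 differed by 0.03, Birc3 by -0.60, Nfkbiz by -0.69 and Il6 by -1.46. Nfkb1 differed by -1.08, Nfkbia by -1.09, Relb by -1.18, Rela by -1.25 and Nfkb2 by -1.72. So Tnf was the member with a higher ratio to Ptprc by more than 0.03. The part of these cell types and of the tumor cells in the changes was not tested.

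**Figure D1:**
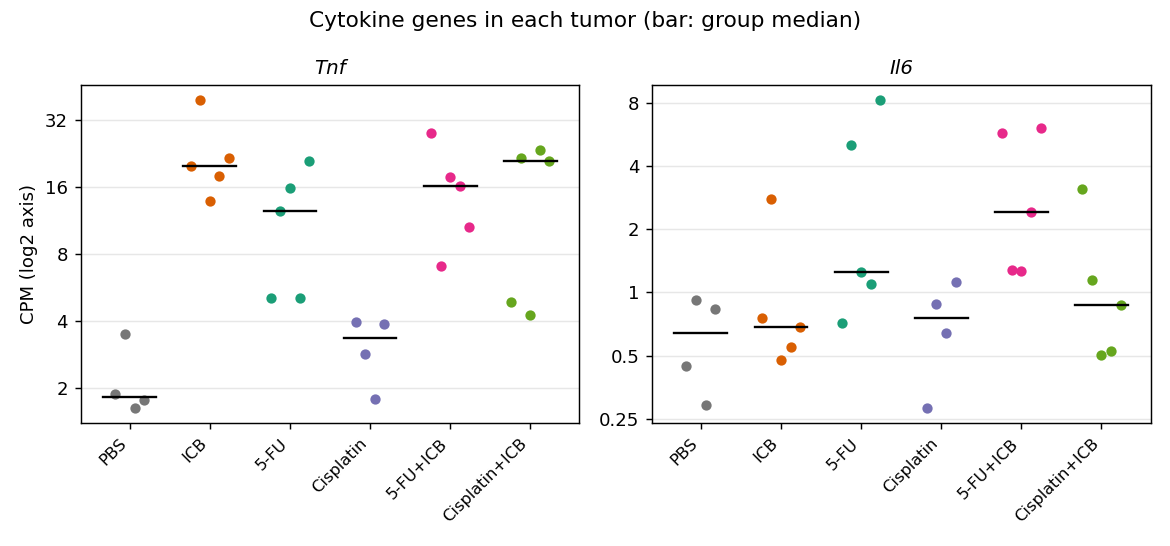
Tnf (left) and Il6 (right) in CPM on a log2 axis, 1 point per tumor and a bar at the group median, for the 6 groups. The 5 ICB tumors lie at 13.7 to 39.0 CPM of Tnf against 1.63 to 3.50 CPM in PBS, and the highest Il6 values are in 5-FU and 5-FU+ICB tumors.

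Il6 (chr5:30013114-30019981, plus strand) was the scarcest member, with 8 to 230 estimated counts per tumor. It was at 0.45, 0.92, 0.29 and 0.83 CPM in PBS tumors, and at 0.75, 2.80, 0.47, 0.55 and 0.68 CPM in ICB tumors. The ICB values lay within the PBS range apart from replicate 2. The log2 fold change was 0.79 ± 0.78 (SE; adjusted p = 0.426), with a 95% interval of -0.85 to 2.43, beside 2.26 to 4.47 for Tnf, and the difference between the 2 genes was not tested.

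The inhibitors rose with ICB. Tnfaip3 (chr10:19000910-19015657, minus strand) encodes A20, a ubiquitin-editing enzyme that stops signaling at the TNF receptor complex. Its level was 17.8 to 23.8 CPM in PBS and 69.5, 112, 84.4, 70.7 and 100.3 CPM in ICB tumors, with no overlap (log2 fold change 2.04 ± 0.40 SE, adjusted p = 0.00124). Nfkbia (chr12:55489410-55492647, minus strand) encodes IκBα, which holds RELA dimers in the cytoplasm. It was at 89.7 to 96.6 CPM in PBS, a narrow range, and at 150.1, 207, 148, 166 and 193 CPM in ICB tumors (log2 fold change 0.91 ± 0.27 SE, adjusted p = 0.0138). Per kilobase of exon it was the most abundant of the 10 members, at a mean of 58.1 CPM per kb in PBS and 107 CPM per kb in ICB tumors.

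Nfkbiz (chr16:55811375-55838899, minus strand) encodes IκBζ, a nuclear IκB protein needed for induction of a subset of NF-κB targets that includes Il6. It was at 10.0, 10.9, 11.3 and 13.4 CPM in PBS and at 24.5 to 31.6 CPM in ICB tumors. The ICB tumors were close to each other and all above PBS (log2 fold change 1.31 ± 0.49 SE, adjusted p = 0.0408). This call was the weakest of the 8. It was lost in each of the 9 fits that left out 1 tumor of these groups, with adjusted p between 0.0518 and 0.0932.

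Birc3 (chr9:7848699-7873186, minus strand) encodes cIAP2, a ubiquitin ligase of the receptor complexes that protects cells from TNF-induced death. It was at 35.3, 31.3, 38.2 and 38.1 CPM in PBS and at 71.3 to 109 CPM in ICB tumors (log2 fold change 1.41 ± 0.25 SE, adjusted p = 0.000743). All ICB tumors were above all PBS tumors. Birc3 has a similar neighbouring paralog, Birc2, and reads shared between them were split by the quantification.

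The members hold 4 subunit genes, of which 3 were called. Nfkb1 (chr3:135584655-135691547, minus strand), which encodes p105 and p50, was at 86.5 to 161 CPM in PBS and at 213 to 280 CPM in ICB tumors (log2 fold change 0.89 ± 0.15 SE, adjusted p = 0.000536). Relb (chr7:19606217-19629438, minus strand), the partner of p52 in the noncanonical arm, was at 33.9 to 52.0 CPM and then at 63.7 to 93.0 CPM (0.82 ± 0.18 SE, adjusted p = 0.00196). Neither pair of groups overlapped. Rela (chr19:5637483-5648130, plus strand), which encodes p65, was at 65.2, 36.2, 92.6 and 85.0 CPM in PBS and at 93.4 to 116 CPM in ICB tumors. Its gap between the groups was narrow, 92.6 against 93.4 CPM, and its lowest value was that of PBS replicate 2, the tumor with the low transcript index. The log2 fold change was 0.68 ± 0.19 (SE; adjusted p = 0.00975), and without PBS replicate 2 it was 0.47 and not called. Nfkb2 (chr19:46304320-46312385, plus strand), which encodes p100 and p52, was at 182, 119, 260 and 251 CPM in PBS and at 194 to 255 CPM in ICB tumors. These ranges overlapped, and the log2 fold change of 0.23 ± 0.18 (SE; adjusted p = 0.305) had a 95% interval of -0.15 to 0.61. Nfkb2 overlaps Psd and a long noncoding RNA on the opposite strand, and Nfkb1 overlaps a transcript annotated as still to be experimentally supported, Gm43430, on its own strand, and whether counting used strand is not given in the sources used here.

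**Figure D2:**
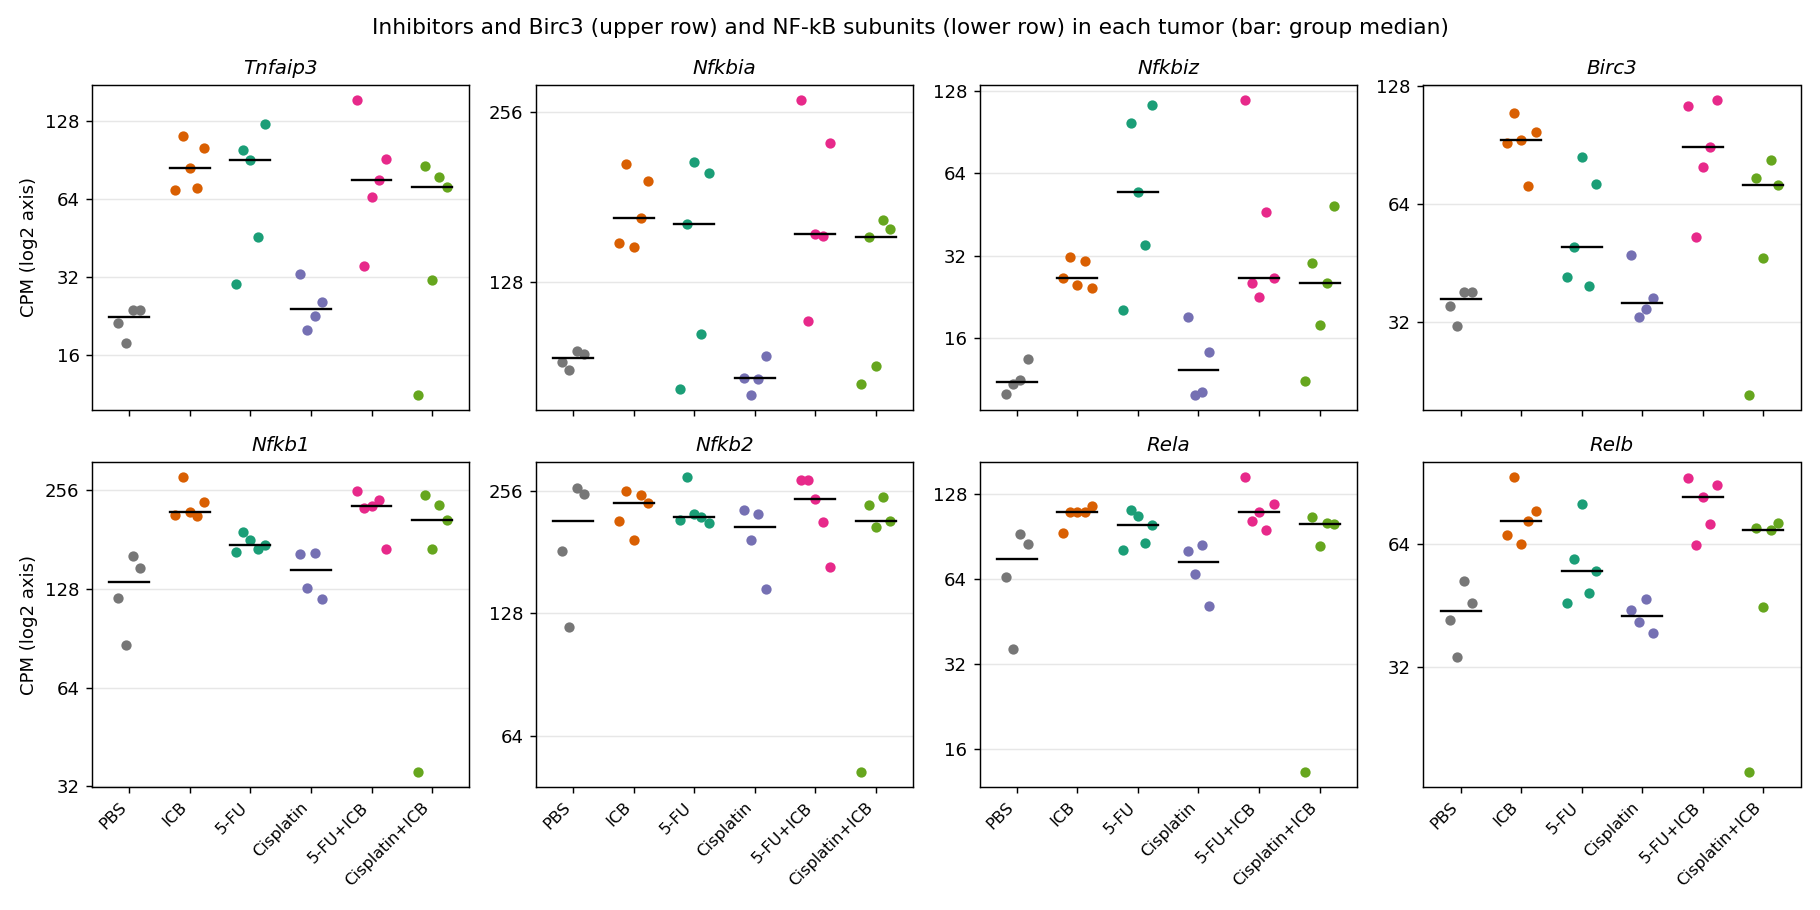
CPM on a log2 axis of 8 members, 1 point per tumor and a bar at the group median. The ICB and PBS points separate in every panel except Nfkb2, and Cisplatin+ICB replicate 1 is the lowest point in each panel of the lower row (52.1 CPM of Nfkb2 and 13.2 CPM of Rela).

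The next comparison was 5-FU against PBS. Here 5 members were called higher and none lower, namely Nfkbiz, Tnf, Il6, Tnfaip3 and Birc3. Of all genes tested, 23% were called in either direction, 9.99% higher. The 5 members whose groups did not overlap were Nfkbiz, Tnf, Tnfaip3, Birc3 and Nfkb1, and 9.28% of all genes had every 5-FU tumor above every PBS tumor. Without PBS replicate 2 the number of all genes called fell from 4111 to 1434, and 3 members were called. The median log2 fold change was 0.71, beside -0.01 over all genes. Markers of several cell types were also higher in 5-FU tumors, namely 4 of 4 fibroblast markers (summed level 5003 to 9056 CPM against 1444 to 4927 CPM in PBS), 4 of 5 T cell (30.0 to 340.2 against 19.7 to 26.4 CPM), 2 of 4 endothelial, 2 of 7 macrophage and monocyte, 1 of 4 leukocyte, 1 of 4 neutrophil and 1 of 5 dendritic cell markers. Msln was lower in every 5-FU tumor, at 45.1 to 177 CPM against 272 to 359 CPM in PBS (log2 fold change -1.54, adjusted p = 0.136, not called). Relative to Ptprc, Tnf differed from PBS by 1.29, Nfkbiz by 1.28, Il6 by 0.84, Tnfaip3 by 0.72 and Birc3 by -0.32 on the log2 scale. The part of these cell types and of the tumor cells in the 5-FU changes was not tested.

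Nfkbiz had the largest 5-FU change. It was at 20.3, 97.4, 54.6, 34.9 and 114 CPM in 5-FU tumors, against 10.0 to 13.4 CPM in PBS (log2 fold change 2.51 ± 0.52 SE, adjusted p = 0.00544). The tumors of the 5-FU group spread over a wider range than those of ICB, and replicates 2 and 5 were the highest. Tnf was at 5.08, 12.4, 15.8, 5.08 and 20.8 CPM (2.43 ± 0.51 SE, adjusted p = 0.00574). Tnfaip3 was at 30.2, 98.7, 90.4, 45.6 and 125 CPM (1.87 ± 0.40 SE, adjusted p = 0.00633). For all 3 genes replicates 1 and 4 were the lowest of the group, yet above every PBS tumor.

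Il6 was at 0.71, 5.08, 1.25, 1.10 and 8.26 CPM in 5-FU tumors. Replicates 2 and 5 were well above the other 3, and replicate 1 lay within the PBS range. The log2 fold change was 2.39 ± 0.81 (SE; adjusted p = 0.039). The call held in 3 of the 9 fits that left out 1 tumor, and without 5-FU replicate 2 or 5, or without any 1 of the PBS tumors, it was lost (adjusted p up to 0.128). Birc3 was at 41.9, 49.8, 84.5, 39.5 and 72.1 CPM (0.71 ± 0.25 SE, adjusted p = 0.0442), and its call also held in 3 of 9 such fits.

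Among the other members, Nfkb1 was at 165 to 190 CPM in 5-FU tumors, all above PBS, with a log2 fold change of 0.47 ± 0.15 (SE; adjusted p = 0.0299), short of the fold threshold. Nfkbia was at 82.8, 163, 208, 104 and 199 CPM (0.71 ± 0.27 SE, adjusted p = 0.0625). Replicate 1 of 5-FU was below every PBS tumor for Nfkbia. Rela (0.51), Relb (0.43) and Nfkb2 (0.21) had log2 fold changes with adjusted p of 0.0561, 0.0738 and 0.38. DESeq2 called 8 members and 4853 genes in all, against 5 and 4111 by edgeR. The 3 added were Nfkb1 (0.52, adjusted p = 0.00606), Nfkbia (0.76, adjusted p = 0.0328) and Rela (0.55, adjusted p = 0.03).

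The 5-FU tumors also differed in immediate-early genes, which respond within minutes to stress, growth factors and tissue handling. Of 8 such genes 5 were called higher in 5-FU than in PBS tumors. Fosb was at a mean of 709 CPM in 5-FU against 9.50 CPM in PBS tumors, and Atf3, Fos and Dusp1 had log2 fold changes of 2.70 (adjusted p = 0.00713), 2.11 (adjusted p = 0.0198) and 1.62 (adjusted p = 0.0225). The summed level of the 8 genes was 400, 3101, 1513, 1137 and 2816 CPM in 5-FU replicates 1 to 5, against 394 to 607 CPM in PBS. Replicates 2 and 5, highest in Nfkbiz and Il6, were also highest in this sum, and replicate 1, lowest in Nfkbiz and Il6, was also lowest. In 5-FU+ICB, replicate 1 had both the highest sum, 1600 CPM, and the highest Nfkbiz, 119 CPM. Il6 did not follow the sum in that group, being highest in replicate 5, 6.11 CPM against 5.78 CPM in replicate 1. Only 1 of the 8 genes, Atf3, was called in ICB tumors, where the sum was 478 to 619 CPM. The part of these genes in the 5-FU results was not tested.

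**Figure D3:**
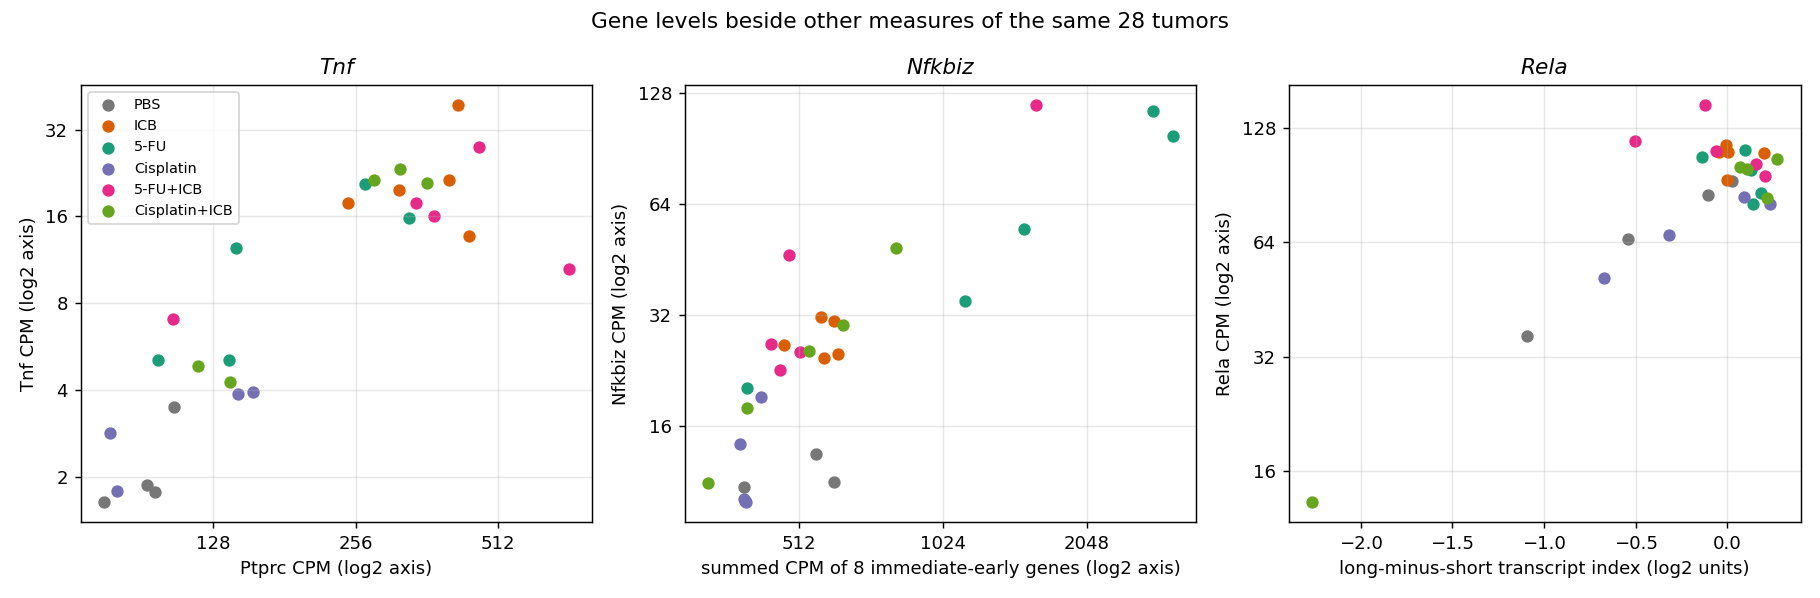
Tnf against Ptprc (left), Nfkbiz against the summed CPM of 8 immediate-early genes (middle) and Rela against the transcript index (right), 1 point per tumor. Nfkbiz is highest in 5-FU and 5-FU+ICB tumors with a sum over 1500 CPM, and Rela is lowest in the tumor with an index of -2.27.

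Cisplatin alone gave no called member. Of all 17798 genes tested against PBS by edgeR, 0% were called, 317 genes had an unadjusted p under 0.05, and DESeq2 called 4 genes. None of the 10 members had an unadjusted p under 0.05, and DESeq2 called none of them. Tnf was at 3.94, 2.82, 1.78 and 3.89 CPM, with 2 tumors above and 2 within the PBS range. Its log2 fold change was 0.51 ± 0.52 (SE; adjusted p = 1), with a 95% interval of -0.58 to 1.60. Nfkbia was at 80.8 to 94.9 CPM (-0.10 ± 0.21 SE), with an interval of -0.53 to 0.34. For Il6 the values were 0.28, 0.88, 0.64 and 1.13 CPM, with an interval of -1.20 to 1.66. All 10 members overlapped between the groups, as did all but 3.45% of the genes compared, and changes within these intervals could not be resolved with 4 tumors a group.

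5-FU and Cisplatin were compared directly in 1 model of all 6 groups. By edgeR, Nfkbiz alone was called, at 20.3 to 114 CPM in 5-FU and 9.92 to 19.1 CPM in Cisplatin tumors (log2 difference 2.26 ± 0.50 SE, adjusted p = 0.0423), where 0.362% of all genes were called, 0.0919% higher. The call held in 2 of 9 fits without 1 tumor. Tnf was higher in 5-FU by 1.92 ± 0.53 (SE; adjusted p = 0.102), with every 5-FU tumor above every Cisplatin tumor as for Nfkbiz and Nfkb1 (5.29% of all genes), and Tnfaip3 by 1.62 ± 0.46 (SE; adjusted p = 0.106). The remaining members differed by 0.22 to 2.16 in the same direction and were not called by edgeR. DESeq2 called 668 genes in all and 4 members, Nfkbiz, Tnf (adjusted p = 0.011), Tnfaip3 (adjusted p = 0.0145) and Il6 (adjusted p = 0.0484). The 2 drugs differ in dose, route and mechanism, and only 1 dose of each was given.

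5-FU+ICB tumors had 9 of the 10 members called higher than PBS, all except Nfkb2, and none lower. Among all genes 40.6% were called, 21.9% higher. The same 9 members did not overlap between the groups, where 10.9% of all genes had every 5-FU+ICB tumor above every PBS tumor. The median log2 fold change was 1.19. Called higher as well were 4 of 4 leukocyte, 5 of 5 T cell (summed level 38.5 to 1013 CPM against 19.7 to 26.4 CPM in PBS), 3 of 4 B cell, 4 of 4 endothelial, 4 of 5 dendritic cell, 3 of 7 macrophage and monocyte, 2 of 4 fibroblast and 1 of 4 neutrophil markers. Msln was called lower, at 0.50 to 167 CPM against 272 to 359 CPM in PBS (log2 fold change -2.28, adjusted p = 0.0238). Relative to Ptprc, Tnf differed from PBS by 0.84, Il6 by 0.22 and the other 7 called members by -1.10 (Rela) to -0.08 (Tnfaip3) on the log2 scale, and the part of these cell types and of the tumor cells was not tested. This comparison shares its PBS tumors with the previous ones.

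Tnf was at 27.8, 7.05, 17.7, 16.0 and 10.5 CPM in 5-FU+ICB tumors (log2 fold change 2.86 ± 0.51 SE, adjusted p = 0.000917). Il6 was at 5.78, 1.27, 1.26, 2.42 and 6.11 CPM (2.43 ± 0.82 SE, adjusted p = 0.0225). Every tumor was above every PBS tumor for Il6, and the call held in 6 of 9 fits without 1 tumor. Nfkbiz was at 119, 25.3, 22.7, 46.4 and 26.6 CPM (2.09 ± 0.51 SE, adjusted p = 0.00395), a group in which replicate 1 stood far above the rest. Tnfaip3 was at 155, 35.2, 64.9, 75.9 and 91.5 CPM (1.99 ± 0.40 SE, adjusted p = 0.00157). Birc3 was at 53.0 to 118 CPM (1.38 ± 0.25 SE, adjusted p = 0.00101) and Nfkbia at 109 to 269 CPM (0.99 ± 0.27 SE, adjusted p = 0.00844). Replicate 1 was the highest of the group for Tnf, Tnfaip3, Nfkbia and Nfkbiz, and replicate 2 the lowest for Tnf and Tnfaip3. Of the subunits, Relb (0.91), Nfkb1 (0.83) and Rela (0.76) were called, and Nfkb2 was at 166 to 272 CPM with a log2 fold change of 0.24 ± 0.18 (SE; adjusted p = 0.273). Without 5-FU+ICB replicate 5 and Cisplatin+ICB replicate 1 the same number of members, 9, was called, and Il6 was at 2.10 with adjusted p = 0.0495.

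**Figure D4:**
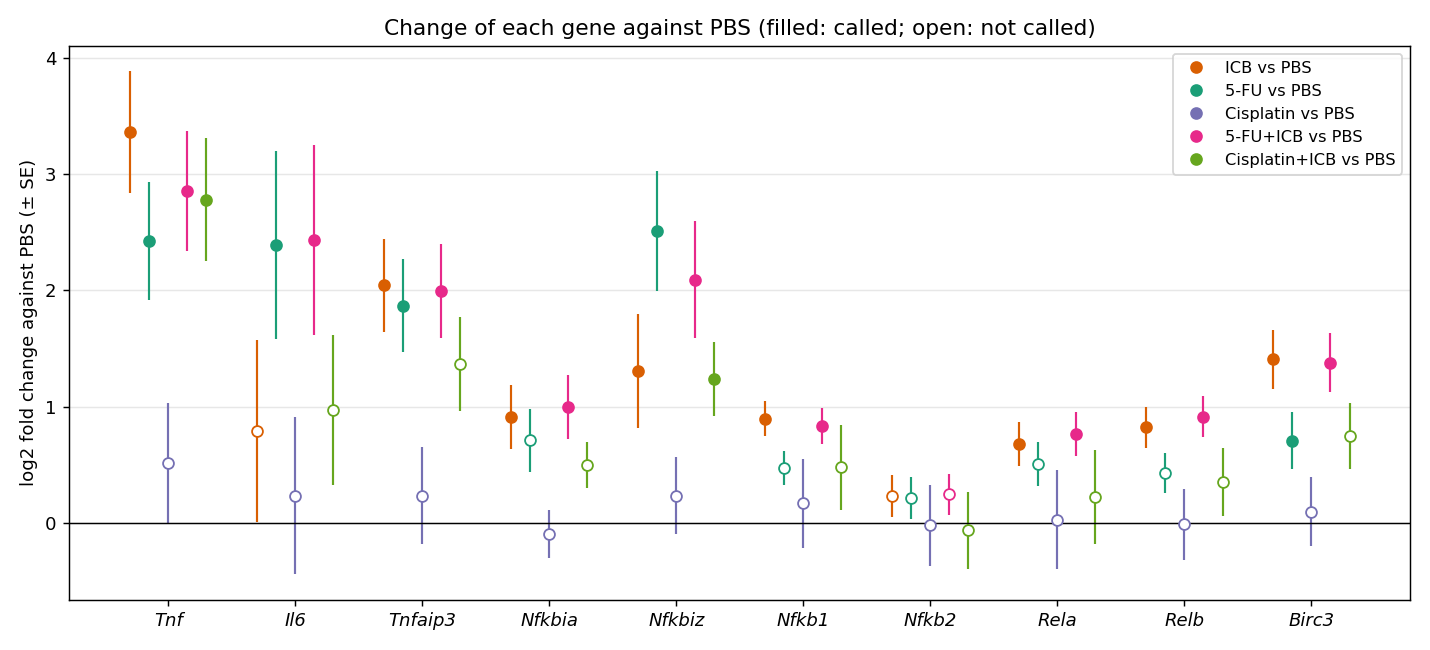
Log2 fold change against PBS (± SE) of the 10 members in the 5 treated groups, with filled points for called changes. Points for Cisplatin lie near 0, Tnf is the highest point of ICB at 3.36, and Il6 is filled in 5-FU and 5-FU+ICB only.

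The comparison of 5-FU+ICB with ICB asks what the drug added. No member was called between 5-FU+ICB and ICB (0.229% of all genes were, 41 genes, against 327 by DESeq2), 1 had an unadjusted p under 0.05, and DESeq2 called none of the members. That member was Il6, 1.64 ± 0.72 (SE) higher on the log2 scale with the drug (adjusted p = 0.413, 95% interval 0.13 to 3.16). Tnf differed by -0.51 ± 0.43 (SE) with an interval of -1.42 to 0.41, Tnfaip3 by -0.05 (-0.80 to 0.70) and Nfkbia by 0.08 (-0.45 to 0.61). For Nfkb1 the interval was -0.36 to 0.23, the narrowest of the 10.

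Adding ICB to 5-FU likewise gave no called member by edgeR (0.0112% of all genes were called), with 3 members at an unadjusted p under 0.05 and none called by DESeq2. The 0.0112% are 2 genes, while DESeq2 called 537, and edgeR called 1940 without 5-FU+ICB replicate 2. The 3 were Relb (0.48 ± 0.16 SE, adjusted p = 0.173), Birc3 (0.67 ± 0.23 SE, adjusted p = 0.182) and Nfkb1 (0.36 ± 0.14 SE, adjusted p = 0.221). Relb and Birc3 were called when 5-FU replicate 3 or 5-FU+ICB replicate 2 was left out. Tnf differed by 0.43 ± 0.43 (SE) and Il6 by 0.04 ± 0.70 (SE).

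The interaction of 5-FU with ICB asks whether the change with both differed from the sum of the single changes on the log2 scale. It was negative for all 10 members, with a median of -0.68 beside 0.03 over all genes, and no member was called by edgeR, where 0.0894% of all genes were. Medians of several marker lists were negative as well, -1.75 for neutrophil, -1.61 for T cell, -0.96 for macrophage and monocyte and -0.78 for leukocyte markers. That of immediate-early genes was -1.40. Medians were positive for B cell markers (0.74) and for mesothelial and mesothelioma markers (1.97). The part of these genes in the members' values was not tested. Tnf had the largest value, -2.93 ± 0.66 (SE; adjusted p = 0.0657), followed by Tnfaip3 at -1.92 ± 0.53 (SE; adjusted p = 0.0667). Both were called by DESeq2 (adjusted p = 0.00128 and 0.0135), and 5 members had an unadjusted p under 0.05. For Tnf the single changes were 3.36 with ICB and 2.43 with 5-FU, and the change with both was 2.86, between them. In the 19 fits without 1 tumor the Tnf interaction lay between -3.30 and -2.62 and was called in 4.

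Cisplatin+ICB was compared with PBS in the second matrix. Tnf and Nfkbiz were called higher, with 6.1% of all genes called and 4.69% called higher. Tnf was at 4.83, 21.4, 4.25, 23.3 and 20.9 CPM (log2 fold change 2.78 ± 0.53 SE, adjusted p = 0.0121). The group fell into 2 low tumors, replicates 1 and 3, and 3 high ones, all above PBS. Tnf was the single member without overlap, where 3.43% of all genes had every Cisplatin+ICB tumor above every PBS tumor. Its call was lost without PBS replicate 1, 3 or 4 (adjusted p up to 0.0673), and without any 1 of these 3 tumors 0 genes in all were called. Nfkbiz was at 11.2, 30.0, 17.9, 25.5 and 48.6 CPM (1.24 ± 0.32 SE, adjusted p = 0.033), with replicate 1 inside the PBS range, and held in 2 of 9 fits without 1 tumor. DESeq2 called Tnfaip3 as well (1.45, adjusted p = 0.00879), and 2151 genes in all against 1086 by edgeR. Called higher as well were 4 of 4 neutrophil (summed level 33.9 to 105 CPM against 9.12 to 17.9 CPM in PBS), 4 of 5 T cell, 3 of 7 macrophage and monocyte, 2 of 4 leukocyte and 2 of 5 dendritic cell markers. Msln was at 131 to 655 CPM, which spans the PBS range of 272 to 359 CPM (log2 fold change -0.21, adjusted p = 0.865). Relative to Ptprc, Tnf differed from PBS by 1.18 and the other 9 members by -1.47 (Nfkb2) to -0.21 (Nfkbiz) on the log2 scale, and the part of these cell types was not tested.

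Replicate 1 of Cisplatin+ICB, the tumor with the index of -2.27, was the lowest tumor of its group for 8 members. It had 11.2 CPM of Tnfaip3 against 31.2 to 85.6 CPM in the other 4, 35.3 CPM of Nfkb1 against 169 to 247 CPM, 20.9 CPM of Birc3 against 46.8 to 82.8 CPM, and 17.7 CPM of Relb against 44.8 to 72.0 CPM. The exceptions were Tnf, lowest in replicate 3, and Il6, highest in replicate 1 at 3.13 CPM against 0.50 to 1.15 CPM. Without this tumor and 5-FU+ICB replicate 5, 8 members were called higher against PBS, beside 6270 genes in all. Tnf was then at 3.06 (adjusted p = 0.00107), Tnfaip3 at 1.71 (adjusted p = 0.000849), Birc3 at 1.04 (adjusted p = 0.00156), Nfkb1 at 0.82 (adjusted p = 0.00342) and Nfkbia at 0.69 (adjusted p = 0.00763). Il6 (0.35) and Nfkb2 (0.26) were the members not called. With the transcript index as a covariate and all tumors kept, 4 members were called, namely Tnf, Nfkbiz, Tnfaip3 and Birc3, beside 3424 genes in all against 1086 without the covariate.

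Against Cisplatin alone, Cisplatin+ICB gave no called member by edgeR (0% of genes), with 5 members at an unadjusted p under 0.05. DESeq2 called 782 genes in all and 3 members, Tnf, Nfkbia and Nfkbiz. Tnf was 2.27 ± 0.51 (SE) higher on the log2 scale (adjusted p = 0.0777), with the 5 tumors of the combination, 4.25 to 23.3 CPM, all above the 4 Cisplatin tumors, 1.78 to 3.94 CPM (1.19% of all genes). Without Cisplatin+ICB replicate 1 and 5-FU+ICB replicate 5, 7 members were called higher, beside 2113 genes in all, and Tnf was 2.55 higher (adjusted p = 0.00723). Against ICB alone, Cisplatin+ICB gave no called member by edgeR (0% of genes) or DESeq2, and 2 had an unadjusted p under 0.05, Birc3 (-0.64 ± 0.27 SE, adjusted p = 0.296) and Nfkbia (-0.40 ± 0.19 SE, adjusted p = 0.309). Tnf differed by -0.58 with a 95% interval of -1.52 to 0.37. The interaction of Cisplatin with ICB called no member by either tool (0% of genes by edgeR), and no member had an unadjusted p under 0.05. For Tnf it was -1.09 ± 0.68 (SE; adjusted p = 0.564).

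The combinations were also compared with each other. No member was called between 5-FU+ICB and Cisplatin+ICB by edgeR or DESeq2 (0.297% of all genes were called by edgeR), and 3 had an unadjusted p under 0.05. Il6 was 1.46 ± 0.69 (SE; adjusted p = 0.183) higher in 5-FU+ICB, with the groups overlapping. Tnf differed by 0.08 ± 0.47 (SE), with a 95% interval of -0.89 to 1.05.

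Across the groups, the order of the members' mean log2 CPM was not the same for every gene. For Tnf it ran ICB, 5-FU+ICB, Cisplatin+ICB, 5-FU, Cisplatin and PBS. In that order the one step without overlap between neighbours was that from 5-FU (3.35) to Cisplatin (1.60). Il6 ran 5-FU+ICB (1.46), 5-FU (1.14), Cisplatin+ICB (0.06), ICB (-0.15), Cisplatin (-0.46) and PBS (-0.65), and all neighbours overlapped. Nfkbiz was highest in 5-FU (5.74) and 5-FU+ICB (5.27), before ICB (4.79). Tnfaip3, Nfkb1 and Birc3 were highest in ICB, followed by 5-FU+ICB, and Nfkbia, Nfkb2, Rela and Relb were highest in 5-FU+ICB, followed by ICB, all with overlap between these groups.

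Of all genes with a mean count of at least 50, those most like Tnf over the 28 tumors were Hcar2 (Pearson r = 0.975), Il1rn (0.967) and Fpr2 (0.961), as a description of these tumors. Hcar2 is a receptor for hydroxybutyrate and niacin on myeloid cells, Il1rn encodes the IL-1 receptor antagonist, and Fpr2 is a formyl peptide receptor of phagocytes. After subtracting group means the values were 0.926, 0.92 and 0.885. Those most like Il6 were Cxcl1 (0.838), a neutrophil chemokine, Crem (0.779), a cAMP-responsive transcription factor, and Tnfaip6 (0.775), a hyaluronan-binding protein. Tnf and Il6 themselves had r = 0.44 over the 28 tumors, while Tnf with Tnfaip3 had 0.886 and Tnfaip3 with Nfkbia 0.938. The 28 tumors share treatment groups and differ in leukocyte markers and RNA quality, which these values do not separate.

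Other genes of the pathway were counted from lists. Over all genes, the shares called higher against PBS were 19% with ICB, 9.99% with 5-FU, 21.9% with 5-FU+ICB and 4.69% with Cisplatin+ICB. A single call in a short list is near such shares and is not read as a result about the list. Of 8 genes for TNF family ligands, their receptors and the protease ADAM17, 7 were called higher and 1 lower with ICB, and likewise with 5-FU+ICB. Cd40, a receptor of antigen-presenting cells, rose by 2.58 ± 0.46 (SE; adjusted p = 0.000699) with ICB. Lta, the lymphotoxin gene of T cells, went from a mean of 0.71 ± 0.15 CPM (SD, n = 4) to 5.55 ± 2.01 CPM (SD, n = 5). The receptor TNFR2 gene Tnfrsf1b rose by 2.13 and Adam17, which encodes the protease that releases TNF from the membrane, by 1.26. The gene called lower, named after its value was seen, was Ltbr, the lymphotoxin beta receptor (-0.54, adjusted p = 0.0456). With 5-FU alone 1 of the 8 was called higher, with Cisplatin none, and with Cisplatin+ICB 3.

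Of 13 adaptors of the TNF receptor complexes, 4 were called higher with ICB, 4 with 5-FU+ICB, 1 with 5-FU and none with Cisplatin or Cisplatin+ICB. The shares over all genes were 19%, 21.9% and 9.99% in the comparisons with calls. The median log2 fold change of the adaptors was 0.38 with ICB, 0.41 with 5-FU+ICB and 0.01 with 5-FU. Rnf31, the catalytic subunit of the linear ubiquitin ligase, rose by 0.99 ± 0.17 (SE; adjusted p = 0.000672), Traf6 by 0.96 and the kinase gene Ripk1 by 0.61 with ICB. Tab2 had a log2 fold change of 0.48, under the fold threshold. Of 4 IκB kinase and NIK genes, Ikbkb alone was called with ICB (0.71 ± 0.15 SE, adjusted p = 0.00189) and with 5-FU+ICB (0.54), while Chuk, Ikbkg and Map3k14 had log2 fold changes of 0.03, 0.25 and -0.24 with ICB.

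Of 5 other NF-κB and IκB genes, 4 were called higher with ICB and 4 with 5-FU+ICB. They were led by Rel, which encodes the lymphoid and myeloid subunit c-REL (1.34 ± 0.26 SE, adjusted p = 0.00122 with ICB), and by Bcl3, a nuclear IκB protein (1.41 ± 0.30 SE, adjusted p = 0.00179). Nfkbie and Nfkbid rose by 1.14 and 1.10. Rel was the 1 gene of this list called with 5-FU (1.28, adjusted p = 0.00559). Of 6 other inhibitors, 4 were called with ICB, among them Tnip1 (1.01), a partner of A20, N4bp1 (1.06) and Zc3h12a (1.44), which encodes the RNase regnase-1 that degrades Il6 RNA, while Cyld was at 0.43. Zc3h12a was also called with 5-FU (1.17, adjusted p = 0.0206).

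Of 10 genes of the IL-6 family and receptor axis, 7 were called higher with ICB, 6 with 5-FU, and 8 higher and 1 lower with 5-FU+ICB. Stat3, the transcription factor downstream of gp130, went from 115 ± 31.1 CPM (SD, n = 4) in PBS to 283 ± 41.4 CPM (SD, n = 5) with ICB, 193 ± 30.6 CPM (SD, n = 5) with 5-FU and 283 ± 35.2 CPM (SD, n = 5) with 5-FU+ICB. Il6st, the gp130 gene, rose by 0.85 with ICB, 1.11 with 5-FU and 1.51 with 5-FU+ICB. Jak2 rose by 1.42, 0.76 and 1.40, and Osm, a cytokine of the IL-6 family, by 1.84, 1.42 and 2.22. Il11, named after its value was seen, was the gene called lower with 5-FU+ICB (-1.60, adjusted p = 0.0242).

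Of 20 other NF-κB target genes, 19 were tested, and 16 were called higher with ICB, 16 with 5-FU+ICB, 13 with Cisplatin+ICB, 8 with 5-FU and none with Cisplatin. Their median log2 fold change was 2.16 with ICB. Nos2, the inducible nitric oxide synthase of macrophages, had a mean of 1.51 CPM in PBS, 321 CPM in ICB, 94.4 CPM in 5-FU+ICB and 8.98 CPM in 5-FU tumors. Cxcl10, a chemokine that also responds to interferon, was at 46.5 ± 8.71 CPM (SD, n = 4) in PBS and 278 ± 37.8 CPM (SD, n = 5) in ICB tumors. Irf1, likewise an interferon target, rose by 1.94 and Tnfaip2 by 2.28 with ICB. With 5-FU the log2 fold changes of these 4 were 2.61, 1.43, 0.54 and 0.70, of which Nos2 and Cxcl10 were called.

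**Figure D5:**
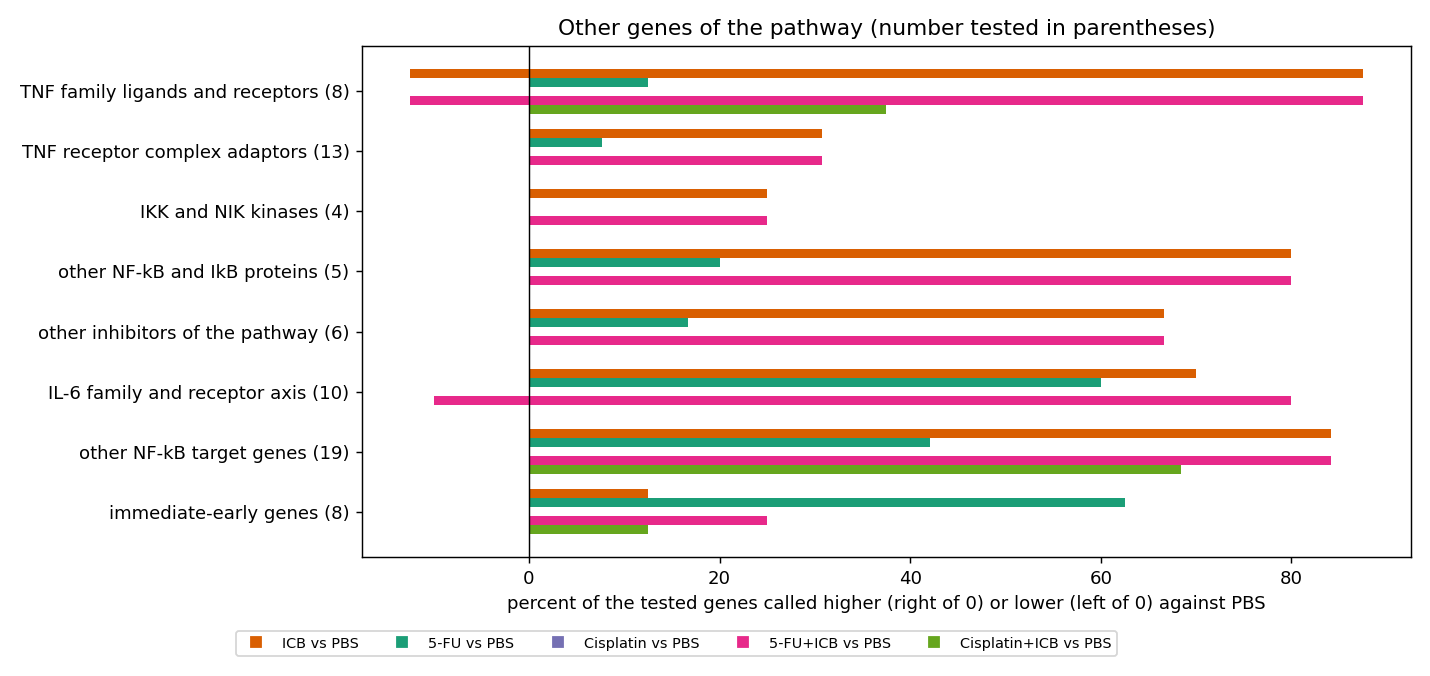
Percent of the tested genes of each of 8 lists called higher (right of 0) or lower (left of 0) against PBS, by treated group. ICB and 5-FU+ICB have the longest bars in 7 lists, and 5-FU has the longest bar for immediate-early genes, 5 of 8.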

How the data were processed

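Whole tumors were sequenced as 100-base single-end reads. Per the submitters' processing notes, bcl2fastq 2.20.0.422 and kallisto 0.46.0 were used with GRCm38 (mm10), and the authors summarised transcripts to genes with tximport. The authors deposited expected counts (estimated counts per gene, not normalized) in 2 matrices, 1 with the 5-FU groups and 1 with the cisplatin groups, with the 9 tumors of PBS and ICB in both. Estimates that were not whole (23.7%) were rounded here. Left out were 26 gene names turned into dates (0.185% of counts), of which 2 were duplicated. All 10 members passed the filter on low counts.

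edgeR 4.0.16 (R 4.3.3) with filterByExpr, TMM scaling and the quasi-likelihood test was fitted to the 4 groups of each matrix, with ICB against PBS taken from the 5-FU matrix. Comparisons of the 2 drugs used 1 model of all 28 tumors. P-values were adjusted over all genes tested (Benjamini-Hochberg), and 95% intervals come from the same model. The study's methods name DESeq2, used here (1.42.0) as an alternative. Other alternatives were DESeq2 size factors, the count filter, a replicate block, the groups in the model and leaving out each tumor. After seeing the data, 2 more were added, leaving out Cisplatin+ICB replicate 1 and 5-FU+ICB replicate 5 together and the transcript index as a covariate. The index compares 5588 genes with transcripts of at least 5000 bases with 1131 of at most 1500 bases. Of the steps, the edgeR fit was tested on simulated counts, for 5-FU against PBS and ICB against PBS.

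Every member is named, and from each list of pathway and immediate-early genes the 4 genes with the smallest p in its comparison with the most calls. Cell type marker lists are given as counts and sums, and Ptprc and Msln were named from them outside this rule, after their values were seen. The 5 skeletal muscle markers were not called in any comparison. Their sum was 93.1 to 160 CPM in PBS, 0.73 to 2941 CPM in ICB, 6.45 to 1276 CPM in 5-FU and 1.21 to 4056 CPM in 5-FU+ICB tumors. The part of muscle in the members' levels was not tested. The members and lists were chosen with earlier results of these data known. Positions are from GENCODE M21 (GRCm38), with values per kilobase using its exon lengths. The design text gives 5 cisplatin samples and the labels give 4. Each tumor came from a different mouse, so p-values measure the spread between mice.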

Additional observations from a re-analysis of the deposited data

Results flagged for a closer look

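In 60 sets of values, 1 for each member and group, 8 held a tumor far from the others by Dixon's test, where chance gives about 5% of sets. Cisplatin+ICB replicate 1 accounted for 3 of them, with Il6 at 3.13 CPM (others 0.50 to 1.15), Nfkb2 at 52.1 CPM (others 209 to 248) and Rela at 13.2 CPM (others 83.4 to 106). This is the tumor with the transcript index of -2.27, and the part of RNA quality in these values was not tested.

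In PBS replicate 2 Tnf was at 3.50 CPM (others 1.63 to 1.87). In ICB, Il6 was at 2.80 CPM in replicate 2 (others 0.47 to 0.75) and Rela at 93.4 CPM in replicate 1 (others 110 to 116). Nfkb2 was at 277 CPM in 5-FU replicate 2 (others 214 to 225). Nfkbiz was at 119 CPM in 5-FU+ICB replicate 1 (others 22.7 to 46.4), the tumor with the highest sum of immediate-early genes in its group, 1600 CPM.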

How the results depend on the processing

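No called member changed direction under any alternative that was run. The number of members called in 5-FU against PBS, 5 in the report, was 8 with DESeq2, 3 with no filter on low counts, 8 with at least 10 counts in every tumor and 3 with all 6 groups in 1 model. Il6, with 8 estimated counts in PBS replicate 3, did not pass the filter of at least 10 counts and was not tested there. In Cisplatin+ICB against PBS, 2 in the report, it was 1 with no filter, 4 with the transcript index as a covariate, 8 without Cisplatin+ICB replicate 1 and 5-FU+ICB replicate 5 (both left out together, PBS replicate 2 kept), 0 with the groups compared alone and 1 with all 6 groups. In Cisplatin+ICB against Cisplatin, 0 in the report, it was 3 with DESeq2, 5 with the index and 7 without both tumors. In 5-FU against Cisplatin, 1 in the report, it was 4 with DESeq2, 0 with no filter, 2 with the index, 3 without both tumors and 3 with the groups alone. In 5-FU+ICB against Cisplatin+ICB it was 1 with the index, in the interaction of 5-FU with ICB 2 with DESeq2, and in ICB against PBS 5 in the cisplatin matrix, against 8. The cause of these shifts was not tested.

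Leaving out 1 tumor at a time gave 6 to 7 members in ICB against PBS, 3 to 6 in 5-FU, 8 to 9 in 5-FU+ICB and 0 to 8 in Cisplatin+ICB against PBS. It gave 0 to 2 in 5-FU+ICB against 5-FU, 0 to 7 in Cisplatin+ICB against Cisplatin, 0 to 1 in 5-FU against Cisplatin and 0 to 2 in the interaction of 5-FU with ICB. The highest counts with Cisplatin+ICB came without its replicate 1.

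Whether replicate numbers pair the tumors cannot be told here, because same-number correlations were not set beside those of different numbers. Same-number correlations of deviations ran from -0.629 to 0.665, and in no comparison were all pairs over 0.1. In Cisplatin+ICB against PBS 3 of 4 pairs were over 0.1, and in 5-FU+ICB against 5-FU 3 of 5. With the replicate block, 7 members were called in ICB, 4 in 5-FU, 9 in 5-FU+ICB and 1 in Cisplatin+ICB against PBS, and 0 in 5-FU against Cisplatin.

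Over all genes, edgeR and DESeq2 called 41 and 327 in 5-FU+ICB against ICB, 2 and 537 in 5-FU+ICB against 5-FU, 0 and 782 in Cisplatin+ICB against Cisplatin, 0 and 52 in Cisplatin+ICB against ICB, 1086 and 2151 in Cisplatin+ICB against PBS, 67 and 668 in 5-FU against Cisplatin, 55 and 1670 between the combinations, and 16 and 1539 in the interaction of 5-FU with ICB. Leaving out 1 tumor gave 5172 to 7075 genes in ICB, 1434 (without PBS replicate 2) to 4739 in 5-FU, 5584 to 8690 in 5-FU+ICB and 0 to 6270 in Cisplatin+ICB against PBS. It gave 1 to 84 in 5-FU+ICB against ICB, 0 to 1940 in 5-FU+ICB against 5-FU, 0 to 2113 in Cisplatin+ICB against Cisplatin, 1 to 77 in 5-FU against Cisplatin, 1 to 2114 between the combinations and 0 to 1696 in the interaction of 5-FU with ICB. With the index as a covariate, 455 genes were called in 5-FU against Cisplatin, 940 between the combinations, 1448 in Cisplatin+ICB against Cisplatin, 3424 in Cisplatin+ICB against PBS and 2449 in 5-FU against PBS. Without both tumors 1490 were called in 5-FU against Cisplatin, 4 between the combinations, 2113 in Cisplatin+ICB against Cisplatin and 6270 in Cisplatin+ICB against PBS. With the groups alone the counts were 948 in 5-FU against Cisplatin and 0 in Cisplatin+ICB against PBS. With no filter they were 25 and 622 in the same comparisons, and 2461 in 5-FU against PBS. In the cisplatin matrix ICB against PBS gave 4655 genes, against 6764. With all 6 groups in 1 model 824 genes were called in 5-FU against PBS, against 4111, and with the block 95 in Cisplatin+ICB against PBS and 5 in 5-FU against Cisplatin. With 8 to 27 estimated counts of Il6 in PBS tumors, its changes are the least precise of the members.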
